A study of Homo sapiens with 9 samples.

Results

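SLC4A4, EMILIN1 and CDH1 are 3 human genes that were chosen from the arrays analysed here because the signals under the thyroid hormone receptor ligands GC-1 and T3 stood apart. Every probe set whose annotation names 1 of these genes and no other was taken. That gave 7 of the 22215 probe sets left once array controls were removed, 4 for SLC4A4, 1 for EMILIN1 and 2 for CDH1, out of 11963 genes named in this way. The arrays are Affymetrix 3' expression arrays of HepG2, an established human hepatoma line. Cells were held in medium with serum depleted of thyroid hormone and received 10 nM GC-1, 10 nM T3 or vehicle for 24 h, with 3 arrays in each group. The study compared the genes regulated by the synthetic ligand with those regulated by the hormone. The labels do not say whether replicates came from separate cultures, so every p-value refers to the spread between these arrays, which may be technical.

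T3, triiodothyronine, is the active thyroid hormone. It binds nuclear receptors that sit on DNA, often beside the retinoid X receptor, and that switch between repression and activation of nearby genes when the hormone arrives. GC-1, or sobetirome, is a synthetic agonist with a preference for the beta receptor, the main form in liver. Its rings carry alkyl groups in the places where T3 has iodine, a methylene group links the rings in place of oxygen, and an oxyacetic acid takes the place of the amino acid chain. SLC4A4 encodes the electrogenic sodium bicarbonate cotransporter NBCe1, which moves bicarbonate across epithelial membranes and sets intracellular pH. EMILIN1 encodes a secreted glycoprotein of elastic fibres that limits the maturation of TGF-beta precursors. CDH1 encodes E-cadherin, the calcium-dependent adhesion molecule of epithelial adherens junctions, which hepatocytes carry at their borders.

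In the reference annotation of GRCh38.p14, SLC4A4 lies on chromosome 4 from 71062660 to 71572083, EMILIN1 on chromosome 2 from 27078615 to 27086403 and CDH1 on chromosome 16 from 68737292 to 68835537. Sequence before annotated start sites was matched in RefSeq (GRCh38.p14) for 1 of the 3 genes, SLC4A4, which has 5 start sites there. Its first and second are shown because they illustrate how different the starts of this single gene are, with a GC content of 39.2% in the first window and 78.8% in the second. Both run on the plus strand, from 250 bases before the start to the base before it, and capitals mark the 50 bases nearest the start.
SLC4A4 window chr4:71062410-71062659: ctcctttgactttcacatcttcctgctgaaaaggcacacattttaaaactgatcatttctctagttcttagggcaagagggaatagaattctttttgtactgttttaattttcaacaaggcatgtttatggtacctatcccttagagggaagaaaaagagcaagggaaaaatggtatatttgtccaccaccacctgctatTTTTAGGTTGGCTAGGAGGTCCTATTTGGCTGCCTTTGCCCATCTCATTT
SLC4A4 window chr4:71186515-71186764: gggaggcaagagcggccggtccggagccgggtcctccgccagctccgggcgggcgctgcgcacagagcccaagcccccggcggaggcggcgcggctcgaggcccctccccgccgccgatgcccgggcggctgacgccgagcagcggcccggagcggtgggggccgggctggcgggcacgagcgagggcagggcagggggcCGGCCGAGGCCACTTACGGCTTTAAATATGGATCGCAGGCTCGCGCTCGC
The thyroid hormone receptor half-site AGGTCA was searched on both strands, along with its direct repeat, a pair of AGGTCA copies with NNNN between them, which contains it. None of the 5 SLC4A4 windows held the half-site or the repeat, while 12.1% of all 35116 windows of the same length held the half-site and 0.0142% the repeat. This says only that these letters are not in these windows.

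The 9 arrays had medians between 7.015 and 7.056 on the log2 scale. T3 replicates 1 and 2 stood apart from the other arrays, with interquartile ranges of 2.99 and 2.97 log2 units, against 2.83 to 2.88 on the other 7. On the second principal component they lay at -14.6 and -11.8, while T3 replicate 3 and the GC-1 and vehicle arrays lay between 0.36 and 8.30. Where GC-1 minus T3 or T3 minus vehicle of a member moved by over 1.5 times or changed sign without both of those arrays, that value is given beside the result. Both ligands acted on known targets. KLF9, a transcription factor induced directly by thyroid hormone, rose by 1.13 ± 0.10 log2 units under GC-1 and by 1.17 ± 0.10 under T3 (SE, n = 3 per group; limma adjusted p = 0.000105 and 4.75e-05). G6PC1, which releases free glucose from its phosphate, rose by 1.96 ± 0.13 under GC-1 and 2.43 ± 0.13 under T3 (limma adjusted p = 1.02e-05 and 1.22e-06). Hepatocyte markers were bright, with vehicle means from 11.6 for FGB to 14.4 for ALB over 9 measured genes. Vehicle means of the 4 measured leukocyte markers ran from 4.88 for PTPRC to 12.5 for LYZ, and those of the 5 endothelial markers from 4.83 for CDH5 to 6.61 for VWF. The 8 fibroblast and stellate cell markers ran from 3.44 for LUM to 10.2 for ACTA2. None of the leukocyte, endothelial, fibroblast and stellate cell markers passed in limma in the mean of the ligands against vehicle. Among them, 1 had an unadjusted limma p under 0.05. Of the 9 hepatocyte markers 2 rose (22.2%, against 6.39% of all genes), FGB by 0.67 and APOB by 0.18 log2 units (limma adjusted p = 7.67e-06 and 0.0405). The 4 cholangiocyte markers ran from 5.82 for KRT7 to 11.8 for EPCAM in vehicle, and 1 passed (25%), KRT19 at -0.26 (limma adjusted p = 0.0167).

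EMILIN1 was higher under both ligands than in vehicle, and higher under T3 than under GC-1 on every array. Its probe set 204163_at read 6.44, 6.55 and 6.49 log2 units on the GC-1 arrays, against 6.79, 6.82 and 6.79 on the T3 arrays and 6.40, 6.34 and 6.35 on the vehicle arrays. It was the only probe set of the gene, and 40.9% of probe sets had a lower mean. The 3 groups did not overlap, and the order was T3, GC-1, vehicle from high to low. The means were 6.49 ± 0.05 under GC-1, 6.80 ± 0.02 under T3 and 6.36 ± 0.03 in vehicle (SD, n = 3 each). GC-1 stood above vehicle by 0.13 ± 0.05 log2 units (SE), a 1.10-fold difference, and T3 by 0.44 ± 0.05, a 1.35-fold difference. The GC-1 difference was thus 30.2% of the T3 difference. GC-1 minus T3 was -0.31 ± 0.05 log2 units. Counting EMILIN1, 121 of the 22215 probe sets had a GC-1 minus T3 difference of at least this size in either direction. The gene was chosen because its GC-1 and T3 arrays stood apart, so the count and the 30.2% describe the choice.

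CDH1 was higher under both ligands than in vehicle on 1 of its 2 probe sets, but its GC-1 and T3 arrays did not stand apart on either. Probe set 201131_s_at read 8.11, 8.18 and 8.32 log2 units on the GC-1 arrays, 8.66, 8.75 and 8.23 on the T3 arrays, and 7.78, 8.01 and 7.96 on the vehicle arrays. All 6 ligand arrays lay above all 3 vehicle arrays. T3 replicates 1 and 2 were the highest of all, and T3 replicate 3 lay inside the range of the GC-1 arrays. The T3 arrays also spread more widely, with means of 8.21 ± 0.11 under GC-1, 8.55 ± 0.28 under T3 and 7.92 ± 0.12 in vehicle (SD, n = 3 each). The difference from vehicle was 0.29 ± 0.12 log2 units (SE) under GC-1, 1.22-fold, and 0.63 ± 0.12 under T3, 1.55-fold.

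The CDH1 difference between the ligands rested on T3 replicates 1 and 2, the arrays with the wide interquartile range. GC-1 minus T3 was -0.34 ± 0.12 log2 units on all arrays and -0.03 ± 0.11 without those arrays, which leaves 1 T3 array that is assumed to vary like the other groups. With the interquartile range of the array as a covariate, GC-1 minus T3 turned to 0.12 ± 0.13. The interquartile ranges did not overlap between the ligands, at 2.83 to 2.85 under GC-1 and 2.88 to 2.99 under T3. In any probe set, GC-1 minus T3 with this covariate is therefore an extrapolation. T3 minus vehicle was 0.32 ± 0.11 without T3 replicates 1 and 2, against 0.63 with them. Without T3 replicate 3, GC-1 minus T3 was -0.50 ± 0.08. EMILIN1 kept -0.30 ± 0.07 without T3 replicates 1 and 2 and -0.28 ± 0.08 with the covariate.

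The other CDH1 probe set, 201130_s_at, read 5.66, 5.73 and 5.77 log2 units on the GC-1 arrays, 5.51, 5.73 and 5.78 on the T3 arrays and 5.45, 5.65 and 5.71 on the vehicle arrays. The 3 groups overlapped throughout. This probe set was dimmer, with 21.1% of probe sets having a lower mean, against 68.2% for 201131_s_at. Whether its low signal hid a difference was not tested. GC-1 stood 0.12 ± 0.08 log2 units above vehicle and T3 0.07 ± 0.08 (SE). The probe sets of this gene thus gave different answers: the ligand differences of 201131_s_at had no counterpart of their size in 201130_s_at, whose GC-1 minus T3 difference was 0.05 ± 0.08. That difference had no stable sign, at -0.06 without T3 replicates 1 and 2, -0.03 without T3 replicate 1, -0.0040 with quantile normalization and -0.12 with the covariate. T3 minus vehicle was -0.0085 without vehicle replicate 1, and 0.18 without T3 replicates 1 and 2.

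**Figure D1:**
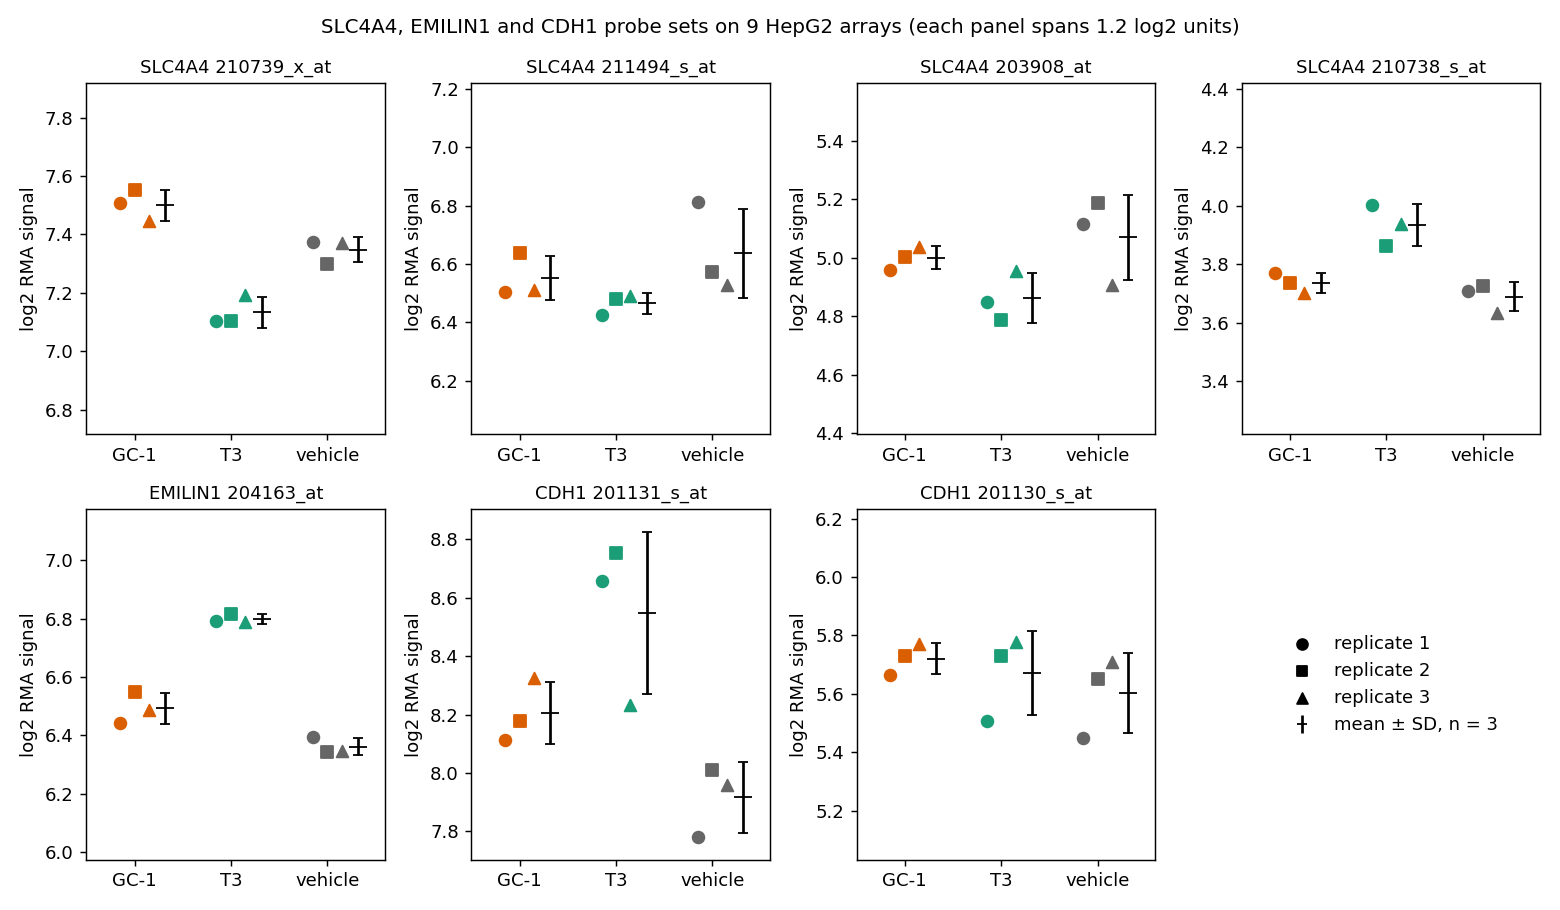
Log2 RMA signal of each of the 7 probe sets on each array (vertical axis), for GC-1, T3 and vehicle; symbols give the replicate number and the bars the mean ± SD of 3 arrays. EMILIN1 shows 3 separate groups, SLC4A4 210739_x_at has GC-1 above and T3 below vehicle, and T3 replicate 3 of CDH1 201131_s_at lies at 8.23, among the GC-1 arrays.

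SLC4A4 had 4 probe sets, which did not share a pattern. On 210739_x_at GC-1 lay above vehicle and T3 below it. This probe set read 7.51, 7.55 and 7.45 log2 units on the GC-1 arrays, 7.10, 7.10 and 7.19 on the T3 arrays and 7.38, 7.30 and 7.37 on the vehicle arrays. No array of 1 group overlapped another group, and the vehicle arrays lay between the ligands. The means were 7.50 ± 0.05 under GC-1, 7.13 ± 0.05 under T3 and 7.35 ± 0.04 in vehicle (SD, n = 3 each). GC-1 stood 0.15 ± 0.05 log2 units above vehicle (SE), 1.11-fold higher, and T3 stood at -0.22 ± 0.05, 1.16-fold lower. GC-1 minus T3 was 0.37 ± 0.05 log2 units. It was 0.31 ± 0.07 without T3 replicates 1 and 2 and 0.27 ± 0.08 with the interquartile range as a covariate. Ligands on opposite sides of vehicle with no overlap were found in 0.392% of all probe sets, and GC-1 above with T3 below in 0.167%. These shares are over all probe sets, whereas this gene was chosen because its ligands stood apart. The x suffix of this probe set marks probes that may also bind unrelated sequences, and the s suffix of 211494_s_at, 210738_s_at and both CDH1 probe sets marks probes shared by several transcripts.

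The signal of SLC4A4 210738_s_at ran the opposite way between the ligands. It read 3.77, 3.74 and 3.70 log2 units on the GC-1 arrays, 4.00, 3.86 and 3.94 on the T3 arrays and 3.71, 3.73 and 3.63 on the vehicle arrays. The T3 arrays were the highest, and the GC-1 and vehicle arrays overlapped. T3 stood 0.25 ± 0.05 log2 units above vehicle, GC-1 0.05 ± 0.05, and GC-1 minus T3 was -0.20 ± 0.05 (SE). These signals lay at the lower end of the arrays, where only 0.468% of probe sets had a lower mean, and whether such a signal is above background was not tested.

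The remaining SLC4A4 probe sets gave small differences. Probe set 211494_s_at read 6.50, 6.64 and 6.51 log2 units on the GC-1 arrays, 6.43, 6.48 and 6.49 on the T3 arrays and 6.81, 6.57 and 6.53 on the vehicle arrays. Probe set 203908_at read 4.96, 5.00 and 5.04 on the GC-1 arrays, 4.85, 4.79 and 4.95 on the T3 arrays and 5.12, 5.19 and 4.91 on the vehicle arrays. Only 9.10% of probe sets had a lower mean than 203908_at, against 40.9% for 211494_s_at. In both, the GC-1 arrays overlapped the vehicle arrays and the lowest values were T3. All 3 T3 arrays lay below the vehicle arrays in 211494_s_at, while the groups overlapped in 203908_at. Their GC-1 minus T3 differences were 0.09 ± 0.07 and 0.14 ± 0.07 log2 units (SE). In 203908_at, leaving out T3 replicates 1 and 2 brought GC-1 minus T3 to 0.05 ± 0.10, against 0.14, and T3 minus vehicle to -0.12 ± 0.10, against -0.21. In 211494_s_at vehicle replicate 1 was the highest array, and without it GC-1 minus vehicle was 0.00133, against -0.09 with it, and T3 minus vehicle was -0.09, against -0.17. In 203908_at GC-1 minus vehicle was -0.07 on all arrays and ran from -0.15 to -0.01 without single arrays. With all arrays the nearest GC-1 and T3 arrays were almost level, at 6.50 and 6.49 in 211494_s_at and at 4.96 and 4.95 in 203908_at. Across the gene, T3 was therefore below vehicle in 3 probe sets and above it in 210738_s_at, and GC-1 was above vehicle in 210739_x_at and 210738_s_at and, with the limit just given for 211494_s_at, below it in the others.

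**Figure D2:**
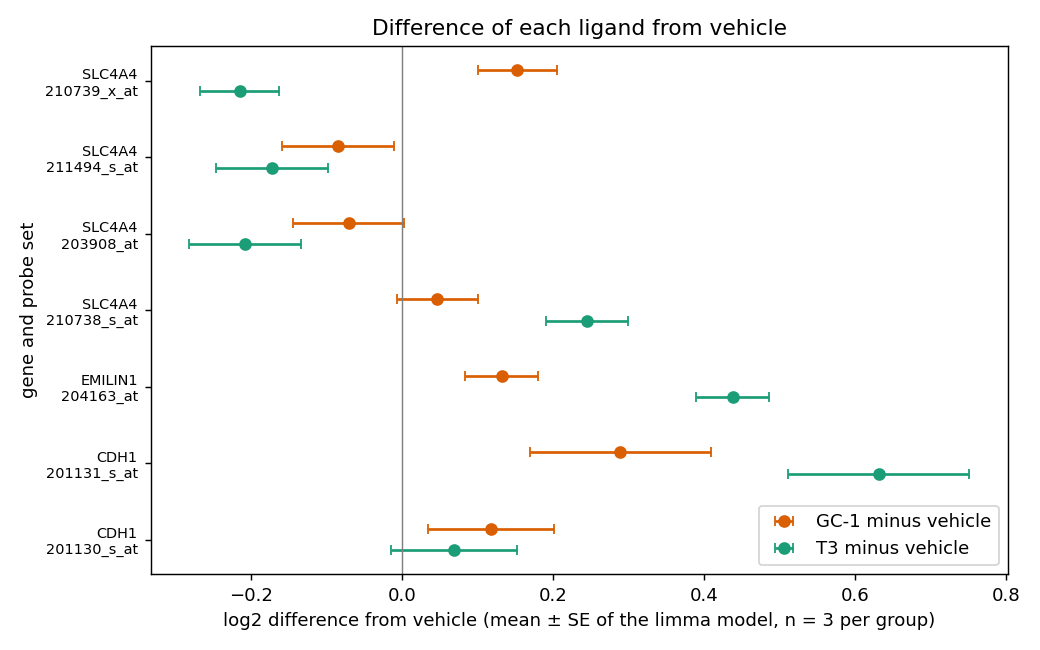
Log2 difference from vehicle (horizontal axis) of GC-1 and of T3 for each probe set (rows), as mean ± SE of the limma model with 3 arrays per group. EMILIN1 204163_at and CDH1 201131_s_at lie right of zero for both ligands with T3 further out, while SLC4A4 210739_x_at has GC-1 at 0.15 and T3 at -0.22.

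The GC-1 and T3 arrays did not overlap in 5 of the 7 probe sets, all but those of CDH1, against 18% of all 22215 probe sets. The genes were chosen on that contrast, so the count describes the choice. The 2 differences from vehicle share the vehicle arrays with each other and the ligand arrays with the choice, and are given as values without a test. All T3 arrays lay apart from all vehicle arrays in 5 of 7 probe sets (24.9% of all probe sets) and all GC-1 arrays in 3 of 7 (26.5% of all).

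The mean of the ligands against vehicle was tested. With ligand groups of equal size and equal spread, its estimate is independent of the difference between the ligands that chose the genes. The SDs under GC-1 and T3 were 0.11 and 0.28 in CDH1 201131_s_at, and 0.05 and 0.02 in EMILIN1. Independence can therefore not be taken as given for either. The p-values of this contrast are not free of that choice. They use the same estimate of the spread within groups, which choosing separated groups can make small. EMILIN1 rose by 0.28 ± 0.04 log2 units in the ligand mean, 1.22-fold (SE, limma adjusted p = 0.00229 over all probe sets), with 6 of 6 ligand arrays above the vehicle arrays. CDH1 201131_s_at rose by 0.46 ± 0.10 log2 units, 1.38-fold (limma adjusted p = 0.0264), also with 6 of 6. These were 2 of 7 probe sets, against 5.53% called among all probe sets and 3.63% called higher. None of the SLC4A4 probe sets passed in limma. In 210739_x_at the ligands lay on opposite sides of vehicle, so their mean largely cancels and cannot show that pattern. Probe set 210738_s_at had 0.15 ± 0.05 (limma adjusted p = 0.106; unadjusted 0.00966), 203908_at -0.14 ± 0.06 (limma adjusted p = 0.268), 211494_s_at -0.13 ± 0.06 (limma adjusted p = 0.310) and 210739_x_at -0.03 ± 0.05 (limma adjusted p = 0.779). CDH1 201130_s_at had 0.09 ± 0.07 (limma adjusted p = 0.545).

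The 2 calls differed in how much they depended on single arrays. The independence just described needs ligand groups of equal size and spread. Passes where a GC-1 or T3 array was left out, arrays were weighted or the covariate was added are therefore given as description. EMILIN1 passed in all 16 alternatives in which it was tested, with adjusted p between 0.000825 and 0.0199 in limma. CDH1 201131_s_at passed in 12 of 17. Its limma adjusted p was 0.0531 without GC-1 replicate 2, 0.0551 without GC-1 replicate 3, and 0.140, 0.0623 and 0.0879 without vehicle replicate 1, 2 and 3, with differences of 0.39 to 0.54 log2 units over the single arrays left out. Without T3 replicates 1 and 2 it was 0.30 ± 0.08 (limma adjusted p = 0.0358).

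**Figure D3:**
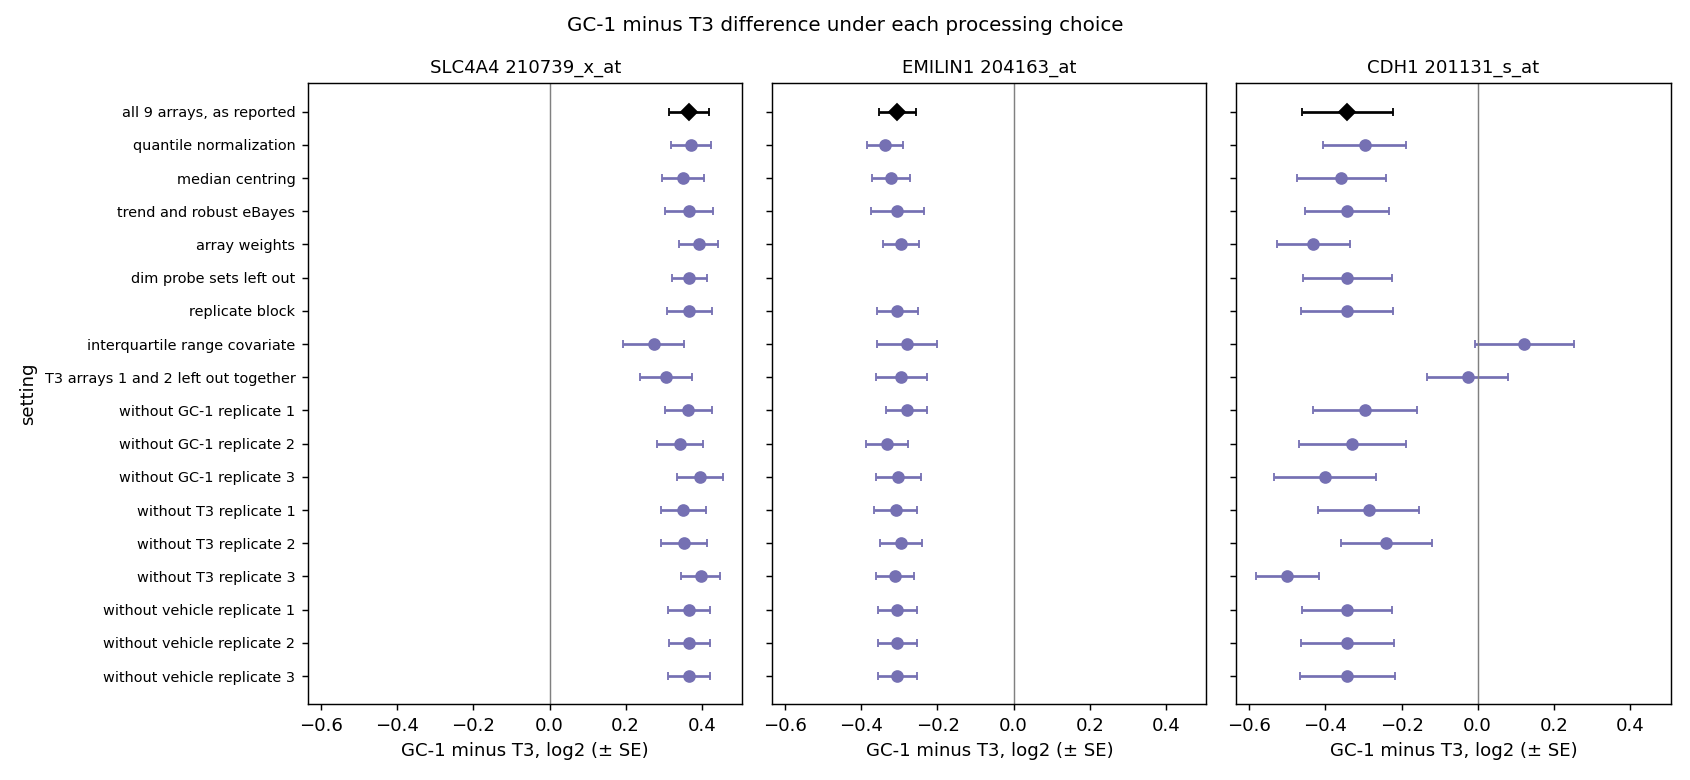
GC-1 minus T3 difference in log2 units (horizontal axis, ± SE) of 1 probe set per gene under each processing choice (rows); the black diamond is the value with all 9 arrays. SLC4A4 210739_x_at and EMILIN1 204163_at stay on 1 side of zero, while CDH1 201131_s_at lies at 0.12 with the covariate and at -0.03 without T3 replicates 1 and 2; EMILIN1 has no value where dim probe sets were left out.

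Genes of bicarbonate and acid-base transport, the setting of SLC4A4, were called at about the share of all genes. Of 39 measured, 1 rose and 1 fell in the mean of the ligands against vehicle, or 5.13%, against 6.39% of all genes, and the median difference was 0.02 log2 units, against -0.01 over all genes. CA5A, a mitochondrial carbonic anhydrase of liver, rose by 0.29 ± 0.05 (SE; limma adjusted p = 0.00487). SLC26A3, a chloride and bicarbonate exchanger, fell by 0.53 ± 0.10 (limma adjusted p = 0.00731). Its limma adjusted p was 0.0530 without vehicle replicate 1 and 0.0549 without vehicle replicate 3. CA11, a carbonic anhydrase-related protein without the enzyme's activity, had 0.18 and SLC26A2, a sulfate transporter, had -0.29 (limma adjusted p = 0.0512 and 0.0567). SLC26A2 passed in 9 of 17 alternatives, with differences of -0.42 to -0.23, and CA11 in 5 of 16. The number called in this list lay between 1 and 5 over the alternatives. Relatives and partners of the cotransporter showed smaller differences, with SLC4A7 at -0.14 (called with the interquartile range covariate, at -0.19, and without T3 replicates 1 and 2, at -0.22), the anion exchanger SLC4A2 at -0.04, and the carbonic anhydrases CA2 and CA12 at -0.07 and -0.05.

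The elastic fibre list, the setting of EMILIN1, held 5 changed genes among 36 measured, 4 higher and 1 lower (13.9%, against 6.39% of all genes), with a median of 0.04 log2 units. LOX, the oxidase that cross-links elastin and collagen, rose by 0.83 ± 0.05 (SE; limma adjusted p = 1.80e-06). COL18A1, a basement membrane collagen, rose by 0.52 ± 0.05 and the laminin chain LAMC1 by 0.30 ± 0.05 (limma adjusted p = 5.52e-05 and 0.00276). LTBP3, which binds latent TGF-beta, rose by 0.24 ± 0.05 (limma adjusted p = 0.0154). MFAP2, a microfibril protein named after its value was seen, fell by 0.21 ± 0.05 (limma adjusted p = 0.0374). LTBP3 had limma adjusted p = 0.0648 without vehicle replicate 2 and 0.0979 without vehicle replicate 3. MFAP2 did not pass without any single vehicle array (limma adjusted p = 0.142, 0.134 and 0.118 without replicates 1, 2 and 3), without GC-1 replicate 1 or 2, without T3 replicate 1, or with the replicate block. The closest relatives, EMILIN2 and MMRN1, had 0.04 and -0.11 log2 units (limma adjusted p = 0.785 and 0.359), EMILIN2 turning negative without T3 replicates 1 and 2. Both were dim, with 18.3% of probe sets having a lower mean than EMILIN2 and 1.98% a lower mean than MMRN1. LOX, COL18A1, LAMC1 and LTBP3 each had a higher mean under T3 than under GC-1, with GC-1 minus T3 at -0.19, -0.17, -0.06 and -0.13. MFAP2 had a higher mean under GC-1 than under T3, at 0.18, and the median of the list was 0.03. None of the 36 passed in that contrast in limma (6 at an unadjusted p under 0.05).

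Of 49 measured genes of adherens junctions and epithelial identity, the setting of CDH1, 2 rose and 4 fell (12.2%, against 6.39% of all genes), with a median of -0.04 log2 units. PTPRF, a receptor phosphatase found at adherens junctions, rose by 0.62 ± 0.04 (SE; limma adjusted p = 9.42e-06). NECTIN3, a junctional adhesion molecule, fell by 0.45 ± 0.09, the keratin KRT18 by 0.26 ± 0.05 and the desmosomal cadherin DSG2 by 0.23 ± 0.04 (limma adjusted p = 0.0130, 0.00670 and 0.0127). ACTN1, an actin crosslinker, rose by 0.20 ± 0.05 and KRT19 fell by 0.26 ± 0.05 (limma adjusted p = 0.0304 and 0.0167), both named after their values were seen. Without vehicle replicate 2, PTPRF alone of these 6 passed; KRT18 had limma adjusted p = 0.0501 and ACTN1 0.155. Without vehicle replicate 3, DSG2 and KRT19 had limma adjusted p = 0.0732 and 0.100, and ACTN1 passed in only 9 of 17 alternatives. The partners of E-cadherin had smaller differences, with CTNNB1 at -0.04, CTNNA1 at 0.13 and JUP at 0.04, which turned negative without vehicle replicate 3. The other classical cadherin of hepatocytes, CDH2, had -0.14 ± 0.04 log2 units (limma adjusted p = 0.0704). CDH2 passed in 4 of 17 alternatives and CTNNA1 in 2.

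Regulators of the transition between epithelial and mesenchymal states held 3 genes that fell and none that rose among 31 measured (9.68%, against 6.39% of all genes). GATA6, a factor of endoderm development, fell by 0.70 ± 0.11 and SERPINE2, a secreted protease inhibitor, by 0.41 ± 0.05 (SE; limma adjusted p = 0.00260 and 0.000416). EZH2, a histone methyltransferase, fell by 0.16 ± 0.04 (limma adjusted p = 0.0451), but it passed in only 6 of 17 alternatives, and its limma adjusted p without single arrays was 0.163 at the highest, without vehicle replicate 3. HDAC2, a histone deacetylase, had -0.15 (limma adjusted p = 0.0559) and passed in 6 of 17 alternatives. The repressors that bind the CDH1 promoter in other systems did not pass. SNAI1, ZEB1 and TWIST1 had -0.01, -0.02 and 0.01 log2 units, differences whose sign changed between alternatives. SNAI2 had 0.12 (limma adjusted p = 0.193). SNAI2 was dim, with 5.44% of probe sets having a lower mean, and TWIST1 was dimmer still. ZEB1 and SNAI1 were brighter, with 73.3% and 31.3% of probe sets having a lower mean. Whether the low signal of SNAI2 and TWIST1 hid a difference was not tested. In the 4 lists together no gene was called in GC-1 minus T3 by limma, as was true of all 22215 probe sets (0%), although 3122 of these had an unadjusted p under 0.05 and eBayes with its trend and robust options called 22.

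**Figure D4:**
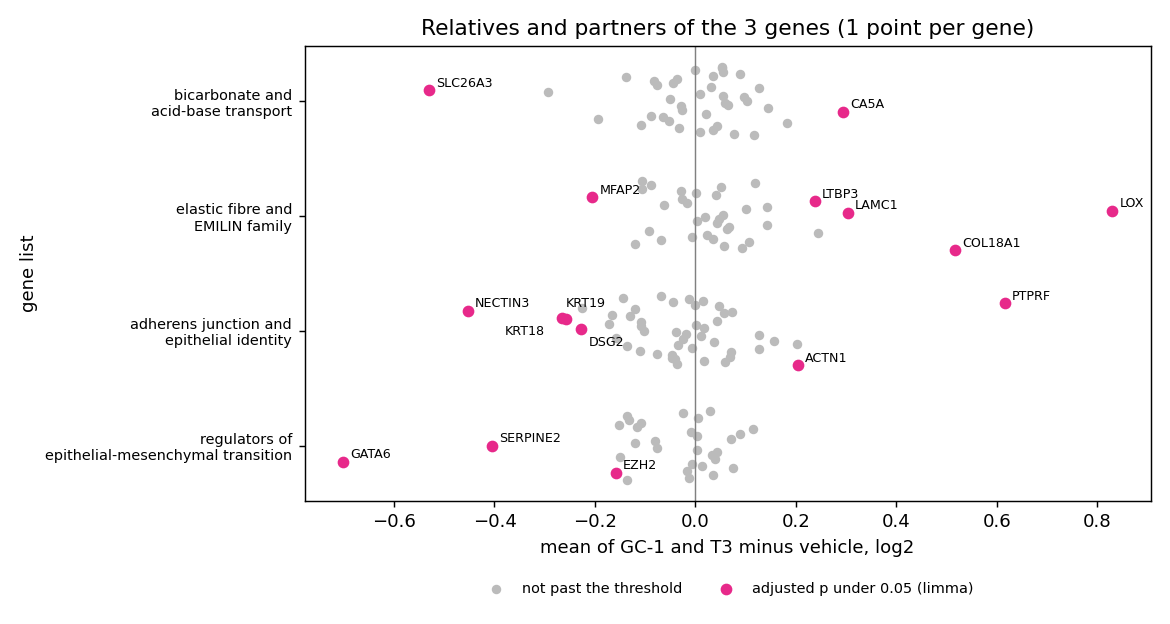
Mean of GC-1 and T3 minus vehicle in log2 units (horizontal axis), 1 point per measured gene in each of 4 lists (rows, spread vertically for clarity); coloured points passed an adjusted p of 0.05 in limma and are named. LOX, PTPRF and COL18A1 lie furthest right and GATA6 and SLC26A3 furthest left, at 0.83, 0.62, 0.52, -0.70 and -0.53.

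Genes with the profile most like each member over the 9 arrays were ranked by the root mean square difference between log2 values centred on each probe set's own mean. Each gene was represented by its probe set closest to the member, so its other probe sets may differ. For EMILIN1 they were FOXN3, DCAF7, NDRG1, YEATS2 and TNNI2, at 0.0392 to 0.0597 log2 units among 9135 genes with a sufficient range. FOXN3, a forkhead transcription factor, averaged 9.24 under GC-1, 9.50 under T3 and 9.04 in vehicle, the same order as EMILIN1. NDRG1, a gene known to be induced by hypoxia, averaged 10.33 under GC-1, 10.58 under T3 and 10.17 in vehicle. For SLC4A4 210739_x_at the nearest were HCG4B, OR12D3, MED14, TCF25 and CHST5, at 0.0519 to 0.0604 log2 units among 9557 genes. In each of the 5, GC-1 was above and T3 below vehicle on average, as with OR12D3, an olfactory receptor gene, which averaged 6.54 under GC-1, 6.27 under T3 and 6.38 in vehicle. MED14, a Mediator subunit, averaged 6.24 under GC-1, 5.93 under T3 and 6.14 in vehicle.

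For CDH1 201131_s_at the nearest were IGFBP3, NAALAD2, MLXIPL, AOX1 and COXFA4L2, at 0.103 to 0.127 log2 units among 1427 genes. IGFBP3, which binds insulin-like growth factors, averaged 7.06 under GC-1, 7.36 under T3 and 6.77 in vehicle. MLXIPL, the carbohydrate response factor ChREBP, averaged 8.42 under GC-1, 8.57 under T3 and 8.05 in vehicle. All 5 were highest under T3 and lowest in vehicle on average. These likenesses are descriptions over 9 arrays that share their groups and the spread of each array. That near genes share a member's order of the groups follows largely from the ranking itself.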

How the data were processed

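Per the submitters' processing notes, RMA made the deposited table, which holds a log2 signal for each probe set on each array. No version is given, and the log base is inferred from the range of values. No further normalization was applied. Scanner files were not used, so detection was not examined, and RMA compresses dim signals. The 62 array controls were dropped. Sample titles gave the groups and replicate numbers. Names came from the 19064 of 22215 probe sets with 1 symbol, and in the lists the probe set with the brightest average on the 9 arrays represented its gene. A group-means model over all 9 arrays was fitted with limma (version 3.58.1, R version 4.3.3), using lmFit and a two-sided eBayes test that had been tested on simulated data. Each contrast was adjusted by Benjamini-Hochberg across its 22215 probe sets, with 0.05 as the threshold of the adjusted p. Members, lists and tests were chosen with earlier results of these data known. Named genes are all member probe sets, 4 genes per list (smallest p for the ligand mean), fixed partners and repressors, KLF9, G6PC1 and the 5 nearest profiles, among genes with at least 0.5 times the member's range. CTNND1 and HNF4A were not analysed here. The alternatives were other normalizations, variance settings, array weights, a dim filter, a replicate block, the interquartile range as a covariate, and arrays left out.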

Additional observations from a re-analysis of the deposited data

Results flagged for a closer look

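The SLC4A4 probe set 210739_x_at is singled out because all 3 GC-1 arrays lay above, and all 3 T3 arrays below, all 3 vehicle arrays, with a GC-1 minus T3 difference of 0.37 log2 units. The difference was not tested, because the gene was chosen on it. The pattern was absent from the other 3 SLC4A4 probe sets, whose GC-1 minus T3 differences were 0.09, 0.14 and -0.20.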

How the results depend on the processing

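With the interquartile range covariate and without T3 replicates 1 and 2, T3 minus vehicle was -0.15 and -0.15 in SLC4A4 210739_x_at and 0.30 and 0.32 in CDH1 201131_s_at, and GC-1 minus T3 was 0.27 and 0.31 in the first and 0.12 and -0.0263 in the second. With the covariate, CDH1 201130_s_at had 0.19 for T3 minus vehicle and -0.12 for GC-1 minus T3. With single arrays left out, the ligand mean of CDH1 201131_s_at was 0.39 to 0.54 and lost its call for 5 of the 9 arrays. The probe sets called in the ligand mean, 1228, became 2061 with trend and robust eBayes, 1966 without dim probe sets, 2629 with the covariate, 2468 without T3 replicates 1 and 2, and 582 to 1405 without single arrays (798 without GC-1 replicate 2, and 603, 626 and 582 without vehicle replicates 1, 2 and 3). For GC-1 minus T3 the count of 0 became 22 with trend and robust eBayes, 3 without dim probe sets, and 0 to 338 (338 without T3 replicate 3). List genes called, 16 in all, became 26 with trend and robust eBayes, 26 with the covariate and 8 to 20 without single arrays (8 and 9 without vehicle replicates 2 and 3). With the replicate block 745 probe sets were called, no call of a member changed, and MFAP2, ACTN1 and EZH2 lost theirs. Same-numbered arrays did not deviate together (correlations of -0.26 to 0.08 over 9 pairs). Over the 18 pairs with different numbers the correlations were -0.30 to 0.29. These values cannot tell whether arrays shared a culture or a day. Untested signs also turned in SLC4A4 211494_s_at and CDH1 201130_s_at, as given with their values. The sign changed in EMILIN2 (-0.00267 without T3 replicates 1 and 2), SNAI1 (0.00184 with quantile normalization, 0.0269 with array weights) and ZEB1 (0.00836 with array weights). Without single arrays JUP lay between -0.0132 and 0.0883, SNAI1 between -0.0437 and 0.0338, ZEB1 between -0.0533 and 0.0282 and TWIST1 between -0.0485 and 0.0715. The other member values kept their call or, where untested, moved by less than 1 SD. The causes were not tested. EMILIN1 and 4 other member probe sets were among the dim probe sets left out. The number of arrays and the low signal of 210738_s_at limit precision.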
